A study of Sorghum bicolor with 24 samples.

Results

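The genes of 3 protective proteins were followed through every library of a sorghum seedling experiment: Sb09g027110, annotated as resembling a group 3 protein of the late embryogenesis abundant (LEA) kind, Sb03g032380, similar to the water-stress protein WSI18, and Sb09g018420, similar to the dehydrin DHN1. They were taken by name and are 3 of 34145 gene models in the deposited tables. The study had itself picked them out as genes strongly raised by both ABA and PEG (Sb09g027110 and Sb03g032380 in roots, Sb09g018420 in shoots), so the values of these genes with each treatment in that tissue are a description, and their p-values are not independent of the choice.

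The 24 RNA-Seq libraries came from seedlings of the line BTx623 grown in hydroponic culture in 8 groups of 3. On day 8 the seedlings received, for 27 h, 20 μM abscisic acid (ABA) or its NaOH solvent control, or 20% polyethylene glycol (PEG) or its H2O control. At 9 days the plants were harvested and divided into roots and shoots, so the root and shoot libraries of 1 replicate number come from the same plants. The main tests between roots and shoots did not use this pairing. Each replicate number stands for 1 hydroponic experiment with a pool of RNA from 3 buckets of 10 plants each, so single plants are not resolved. All groups share the genotype and the culture. ABA and PEG had separate controls. The libraries held 12891722 to 22840499 reads on gene models (median 15352184).

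LEA proteins are hydrophilic, mostly unstructured proteins that accumulate when seeds dry out and when vegetative tissue loses water, and they are thought to shield other proteins and membranes. Dehydrins are a class of LEA protein with lysine-rich repeats, and maize DHN1 is a standard marker of ABA and dehydration response. WSI18 was first described in rice as a transcript induced by water stress and encodes a LEA protein. ABA is the hormone that rises in plants under water deficit and activates many such genes through kinases and bZIP transcription factors, while PEG in the root medium lowers the water potential that the roots meet and gives no hormone.

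In the genome build sbi1, Sb09g027110 lies on chromosome 9 from 56214055 to 56215358 with 1100 exonic bases, Sb03g032380 on chromosome 3 from 60824613 to 60825926 with 1047, and Sb09g018420 on chromosome 9 from 46038022 to 46039089 with 936. No other gene model overlapped them. The nearest gene models lay 4861 to 18013 bp away and stayed at or below 29.1 normalized reads in every library, except Sb09g027100, 5689 bp from the LEA group 3 gene, which reached 409.

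Libraries of 1 group were not equally alike. Each of the 24 was set against the mean of the other 2 of its group (with 1 normalized read added), and the share of genes tested at least 4-fold above was 0.00882% to 0.468% in all but 3. It was 3.20% (726 of 22667 genes) in H2O shoots replicate 2, 1.16% (263) in PEG roots replicate 3 and 1.14% (258) in NaOH roots replicate 3. The share at least 4-fold below was highest in H2O shoots replicate 1 (3.82%). Of these libraries PEG roots replicate 3 and H2O shoots replicate 2 were high for the genes described here. Several values, but not all, are also given without them, or as a range over fits that left out 1 library or replicate number. Summed RPKM of 8 shoot marker genes (photosynthesis) was 11.05 to 34.6 in root libraries and 15710 to 35110 in shoot libraries, and 1 root cap gene was at 18.0 to 141 RPKM in roots and 0 to 0.476 RPKM in shoots. The tissue labels therefore hold, and in PEG roots replicate 3 the shoot sum was 16.3 RPKM, against 11.9 and 13.52 RPKM in the other PEG root libraries. These markers also moved with treatment: the root cap gene was at 18.0 to 26.6 RPKM in ABA roots, against 74.3 to 141 RPKM in NaOH roots, and the shoot sum at 15710 to 21633 RPKM in ABA shoots, against 27840 to 35110 RPKM in NaOH shoots. In PEG shoots the shoot sum was 18564 to 23464 RPKM, against 28353 to 33218 RPKM in H2O shoots. The part of these shifts in the results below was not tested. Since tissues were sequenced in bulk, fewer cells of a type and less RNA per cell cannot be told apart.

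The LEA group 3 gene Sb09g027110 was among the most abundant transcripts of ABA-treated roots and close to silent in untreated ones. In ABA roots it had 57428, 54854 and 51645 normalized reads (reads scaled to the mean library), against 25.1, 16.6 and 17.8 in NaOH roots. The lowest ABA library was 2058 times the highest NaOH library, and the groups did not overlap. By the quasi-likelihood test of edgeR, with p-values adjusted by Benjamini and Hochberg's method over all genes tested, the log2 difference came to 11.43 (SE 1.31, adjusted p = 1.1e-06).

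With PEG the same gene reached 179, 176 and 3227 normalized reads in the root libraries, against 24.5, 69.7 and 22.7 for their H2O controls. All PEG libraries were above all H2O libraries, but the mean rested on replicate 3. The log2 fold change of 4.95 (SE 1.03) passed the test (edgeR adjusted p = 0.00406). Without PEG roots replicate 3 it was 2.20 (edgeR adjusted p = 0.0814), short of a call. The call was also lost without replicate 1 in all groups (5.24, edgeR adjusted p = 0.0760) and without replicate 3 in all groups (1.89, 0.252).

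In shoots the order of the treatments was the other way round. Sb09g027110 had 11556, 10511 and 10964 normalized reads in PEG shoots, against 3.37, 54.1 and 4.50 in H2O shoots. Every PEG library was at least 194 times the highest H2O library, and the log2 fold change was 9.05 (SE 1.24, edgeR adjusted p = 5.19e-05), or 11.37 without H2O shoots replicate 2. In ABA shoots it had 1164, 3015 and 1634 normalized reads, against 25.1, 92.2 and 3.53 in NaOH shoots. The groups were again apart, with a log2 fold change of 5.53 (SE 1.06, edgeR adjusted p = 0.000834), and replicate 2 was the highest library in both groups.

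WSI18, the least abundant of the 3 genes by RPKM in every group of treated libraries, was almost absent from control roots. Sb03g032380 had 1514, 1255 and 1111 normalized reads in ABA roots, against 3.01, 0.977 and 0 in NaOH roots. The control value stands for 4 reads in all, so the fitted log2 fold change of 10.00 (edgeR adjusted p = 7.4e-06) depends on the prior count. The ratio of the summed, scaled reads was 1119, with an exact 95% counting interval of 437 to 4107. Such intervals and the limits for a count of 0 cover counting error alone.

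In PEG roots WSI18 was at 64.2, 56.9 and 873 normalized reads, while H2O roots gave 1.11, 1.88 and 0, where 3 reads were counted in all. The 3 PEG libraries lay above the 3 controls, and replicate 3 was 15.3 times the lowest PEG library. The fitted log2 fold change was 8.38 (SE 1.41, edgeR adjusted p = 0.000691), and 5.90 (SE 1.10, edgeR adjusted p = 0.00267) without PEG roots replicate 3. The ratio of summed reads was 469 (exact 95% counting interval 160 to 2279), which covers no spread between replicates. The call was lost at a depth cutoff of 5X.

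WSI18 set both treatments apart in shoots. It had 2878, 1074 and 2638 normalized reads in PEG shoots, against 0, 13.9 and 1.13 in H2O shoots. With ABA the shoot values were 14.3, 1.44 and 36.5 normalized reads, against 20.1, 13.9 and 0 in NaOH shoots. The PEG libraries were at least 77.5 times the highest H2O library, while the ABA and NaOH libraries overlapped.

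The log2 fold change of WSI18 in shoots was 8.74 with PEG (SE 1.19, edgeR adjusted p = 5.02e-05), or 11.43 without H2O shoots replicate 2, and 0.84 with ABA (SE 1.33, edgeR adjusted p = 0.707). At 1 to 39 reads per ABA shoot library a moderate change could be missed, and no detection limit was computed. In the 4 control libraries with no WSI18 read, a count of 0 allows a share of up to 1.32e-05% to 2.12e-05% of the reads.

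The dehydrin Sb09g018420 was the one gene of the 3 with a high level in untreated tissue, and only in roots. It had 88056, 78997 and 67770 normalized reads in ABA roots, against 1657, 1530 and 1454 in NaOH roots. The groups were at least 40.9-fold apart, and the log2 fold change was 5.66 (SE 0.55, edgeR adjusted p = 1.22e-07).

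In PEG roots the dehydrin was at 2973, 2597 and 4938 normalized reads, while H2O roots gave 1741, 1773 and 2084. The groups did not overlap, but the log2 fold change of 0.91 (SE 0.45) did not pass the test (edgeR adjusted p = 0.284). It was 0.58 without PEG roots replicate 3, the highest of these libraries.

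In shoots the dehydrin was far above its controls with either treatment. It had 5809, 28353 and 9861 normalized reads in ABA shoots, against 53.5, 103 and 38.9 in NaOH shoots. It had 11503, 20968 and 13104 normalized reads in PEG shoots, against 21.9, 103 and 57.4 in H2O shoots. Neither pair of groups overlapped, and replicate 2 was the highest library of all 4 groups. The log2 fold change was 7.80 with ABA (SE 0.62, edgeR adjusted p = 4.43e-08) and 7.95 with PEG (SE 0.63, edgeR adjusted p = 8.07e-08), and without ABA shoots replicate 2 the first was 6.89.

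**Figure D1:**
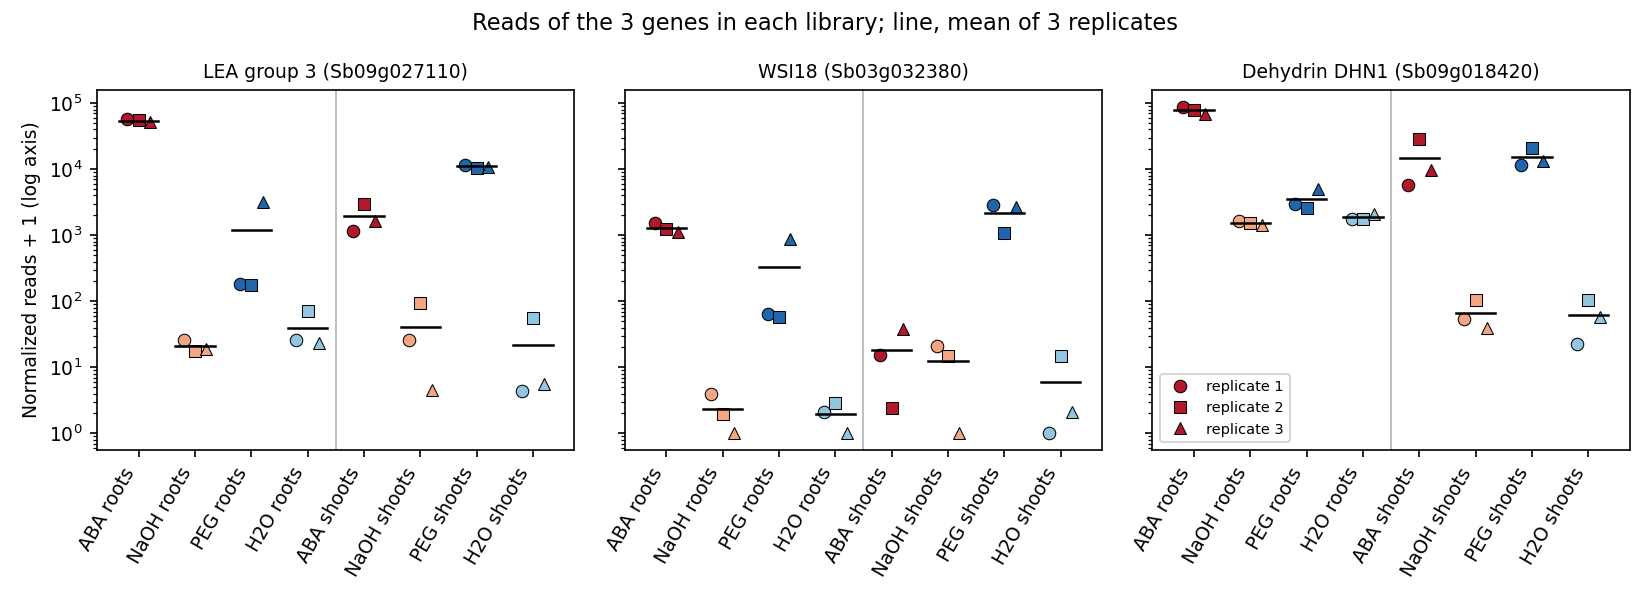
Normalized reads plus 1 (log axis) of the 3 genes in each of the 24 libraries, by group, with replicates as separate symbols and the mean of 3 as a line. ABA roots and PEG shoots hold the highest libraries of the LEA group 3 gene and of WSI18, and PEG roots replicate 3 sits at 3227 and 873 normalized reads for these genes, far above its 2 partners.

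Calls required 3 things of a gene: an adjusted p below 0.05, a change of 1 or more on the log2 scale and, in 1 of the groups, a median depth no lower than 2X, where depth is aligned bases per exonic base. All 3 genes were called higher with ABA in roots, where 5.44% of genes tested were, and all 3 with PEG in shoots, where 2.73% were. With PEG in roots 2 of 3 were called higher (2.03% of genes tested), and with ABA in shoots 2 of 3 (3.16%). The gene that was not called was the dehydrin in PEG roots and WSI18 in ABA shoots. Among 22667 genes ordered by log2 fold change, the LEA group 3 gene held place 16 with ABA in roots, 65 with PEG in roots, 45 with ABA in shoots and 18 with PEG in shoots. In the same order of comparisons, WSI18 held places 32, 4, 1721 and 25, and the dehydrin 166, 1484, 14 and 38. With PEG in roots, the fold changes behind these places were smaller without PEG roots replicate 3.

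**Figure D2:**
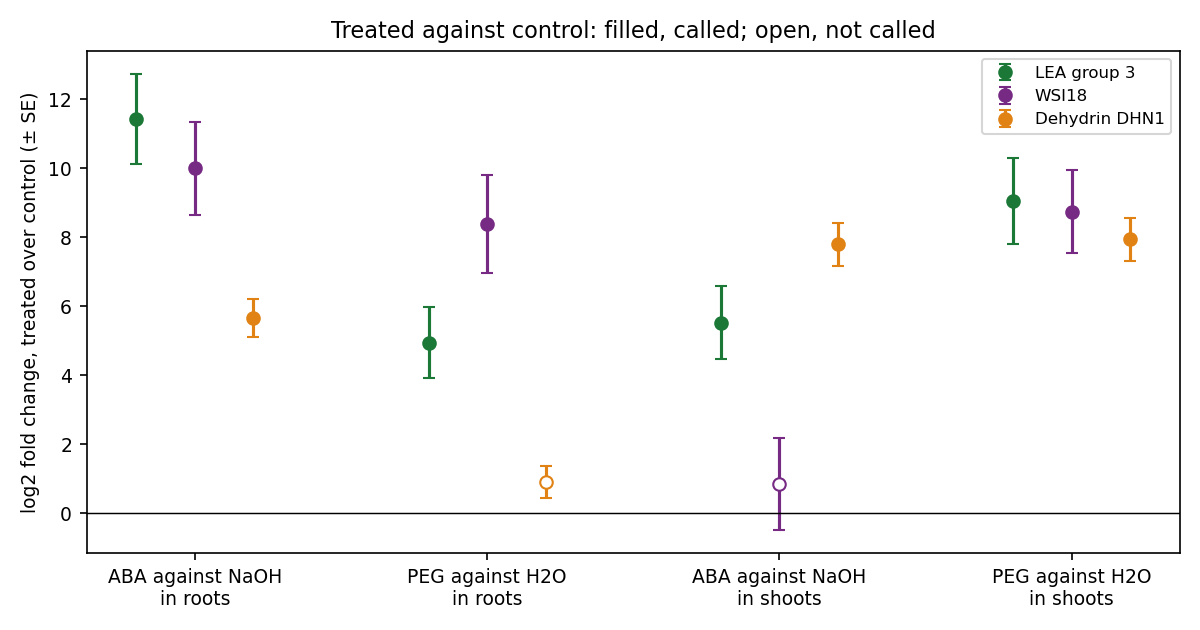
Log2 fold change (treated over control, ± SE from the edgeR fit) of the 3 genes in the 4 treated against control comparisons, filled where called. The dehydrin with PEG in roots (0.91) and WSI18 with ABA in shoots (0.84) are the 2 open symbols, and the other 10 values lie between 4.95 and 11.43.

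The difference between the ABA effect and the PEG effect was tested as an interaction. It reuses the treated and control values by which the genes had been picked. In roots the ABA effect exceeded the PEG effect by 6.48 on the log2 scale for the LEA group 3 gene (SE 1.44, edgeR adjusted p = 0.00353) and by 4.75 for the dehydrin (SE 0.67, edgeR adjusted p = 5.02e-05). For WSI18, with both controls near 0, the difference was 1.62 (edgeR adjusted p = 0.857) and ranged from 0.21 to 4.17 as single libraries or replicate numbers were left out. These were 2 of 3 genes called, against 12.1% of genes tested. The call of the LEA group 3 gene was lost without replicate 1 (edgeR adjusted p = 0.0664) and without replicate 2 (0.0662), and without PEG roots replicate 3 its difference was 9.23.

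In shoots the sign was turned round for WSI18, whose ABA effect was below its PEG effect (log2 difference −7.90, SE 2.10, edgeR adjusted p = 0.0485). This call lay at the threshold and was lost in the fit of the 12 shoot libraries (edgeR adjusted p = 0.0538), without the low-count filter (0.0776) and in 19 of the 27 fits that left out 1 library or replicate number. The difference was −3.52 for the LEA group 3 gene (SE 1.48, edgeR adjusted p = 0.217) and −0.15 for the dehydrin (SE 0.72, edgeR adjusted p = 0.959). For the LEA group 3 gene it ranged from −5.85 to −1.83 as single libraries or replicate numbers were left out. Of all genes tested, 1.79% were called in this comparison.

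Compared directly, ABA and PEG libraries gave the same order. In roots the ABA level was above the PEG level by 5.51 on the log2 scale for the LEA group 3 gene (SE 0.99, edgeR adjusted p = 0.000259) and by 4.48 for the dehydrin (SE 0.52, edgeR adjusted p = 1.73e-06), where 12.1% of genes tested were called. For WSI18 it was 1.94 (SE 0.75, edgeR adjusted p = 0.0579), and with the replicate number as a block 2.55 (edgeR adjusted p = 0.0112), which is a call. Without PEG roots replicate 3 it was 4.42. The difference of the LEA group 3 gene in roots ranged from 4.97 to 8.30 as single libraries or replicate numbers were left out. In shoots WSI18 was lower with ABA than with PEG by a log2 difference of −6.83 (SE 1.01, edgeR adjusted p = 0.000233), where 3.84% of genes tested were called. The LEA group 3 gene differed by −2.51 (SE 0.87, edgeR adjusted p = 0.0685), which passed with the replicate block (−2.64, edgeR adjusted p = 0.0400), and the dehydrin by −0.05 (SE 0.45, edgeR adjusted p = 0.973).

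The full order of the 4 treatments was ABA, PEG and then both controls in roots for all 3 genes, and PEG, ABA and then both controls in shoots. No test set the controls apart. In roots NaOH minus H2O was −0.97 (SE 1.13) for the LEA group 3 gene, 0.33 for WSI18 (4 against 3 reads) and −0.27 (SE 0.45) for the dehydrin on the log2 scale. In shoots these were 1.02 (SE 1.24), 1.07 (SE 1.77) and 0.10 (SE 0.56). No gene was called between the controls in the edgeR fit (0% of genes tested), while 360 in roots and 567 in shoots had an unadjusted p under 0.05, and DESeq2 called 1 and 0. Among the other neighbours in the order, PEG and ABA in shoots for the dehydrin, and ABA and NaOH in shoots for WSI18, had overlapping libraries and did not pass the test. The pairs ABA and PEG in roots for WSI18, PEG and H2O in roots for the dehydrin, and PEG and ABA in shoots for the LEA group 3 gene did not overlap but also missed a call without the replicate block. With the block, the WSI18 pair and the LEA group 3 pair were called.

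Basal levels, in the NaOH and H2O libraries, differed between tissues for the dehydrin alone among the 3 genes by this test. In control roots it had 1454 to 2084 normalized reads, against 21.9 to 103 in control shoots, and the lowest root library was above the highest shoot library. The log2 difference was 4.73 (SE 0.39, edgeR adjusted p = 7.04e-10), in a comparison in which 36.6% of genes tested were called. The LEA group 3 gene had 16.6 to 69.7 normalized reads in control roots, against 3.37 to 92.2 in control shoots (log2 difference −0.09, SE 0.85, edgeR adjusted p = 0.930). WSI18 had 0 to 3.01 in control roots, against 0 to 20.1 in control shoots (log2 difference −2.72, SE 1.72, edgeR adjusted p = 0.159). This difference did not pass the test, and it ranged from −3.39 to −1.37 as single libraries or replicate numbers were left out. At so few reads a difference could be missed, and no detection limit was computed.

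The treatment effects themselves depended on the tissue. With ABA the effect in roots exceeded that in shoots by 5.90 on the log2 scale for the LEA group 3 gene (SE 1.46, edgeR adjusted p = 0.00901) and by 9.15 for WSI18 (SE 2.30, edgeR adjusted p = 0.0103). For the dehydrin it was smaller in roots (−2.13, SE 0.68, edgeR adjusted p = 0.0397), although its level with ABA was higher in roots than in shoots by 2.42 (SE 0.47, edgeR adjusted p = 0.000169, with 32.6% of genes tested called). All 3 were called, where 9.56% of genes tested were, but the signs follow the tissue in which the study had picked each gene and are not independent of that choice. The calls were not firm. Of 27 fits that left out 1 library or replicate number, the dehydrin lost its call in 11, among them every fit without 1 ABA root or NaOH root library, and without ABA shoots replicate 2 its difference was −1.23. WSI18 lost its call in 4 (without replicate 1 or 2, and without NaOH shoots replicate 1 or 2). The LEA group 3 gene lost it in 3 (without replicate 1 or 2, and without NaOH shoots replicate 2, where the difference was 4.21).

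With PEG the dehydrin effect was smaller in roots than in shoots by a log2 difference of −7.04 (SE 0.73, edgeR adjusted p = 1.59e-05), and 4.08% of genes tested were called. The LEA group 3 gene differed by −4.10 (SE 1.46, edgeR adjusted p = 0.101). This passed the test without PEG roots replicate 3 (−6.86, edgeR adjusted p = 0.000813), without H2O shoots replicate 2 (−6.42, 0.0313) and with the replicate block within each tissue (−5.07, 0.0320). WSI18 differed by −0.36 (edgeR adjusted p = 0.998), with a range of −3.04 to 0.96 as single libraries or replicate numbers were left out. As levels, all 3 genes were lower in PEG roots than in PEG shoots, by 2.12 to 3.20 on the log2 scale (edgeR adjusted p = 0.000541 to 0.00434, with 34.6% of genes tested called). This comparison of levels includes PEG roots replicate 3 and was not repeated with libraries left out.

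By share of the transcriptome, the 3 genes together took 1.03%, 0.962% and 0.867% of the bases on gene models in the ABA root libraries, against 0.0114%, 0.0110% and 0.00979% in NaOH roots. In PEG roots they took 0.0221%, 0.0202% and 0.0629%, against 0.0123%, 0.0128% and 0.0142% in H2O roots. The dehydrin alone held 0.619% of bases in ABA roots replicate 1 (Wilson 95% interval 0.615% to 0.623%), and its mean over the ABA root libraries was 0.556% ± 0.0659 (SD, n = 3). The LEA group 3 gene averaged 0.389% ± 0.0162 and WSI18 0.00919% ± 0.00134 there.

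The summed share in shoots was 0.132%, 0.175% and 0.133% with PEG, against 0.000106%, 0.000813% and 0.000276% with H2O. With ABA it was 0.0336%, 0.139% and 0.0558%, against 0.000429%, 0.000891% and 0.000180% with NaOH. The shares were thus highest with ABA in roots and with PEG in shoots, although ABA shoots replicate 2 lay between the PEG shoot libraries.

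**Figure D3:**
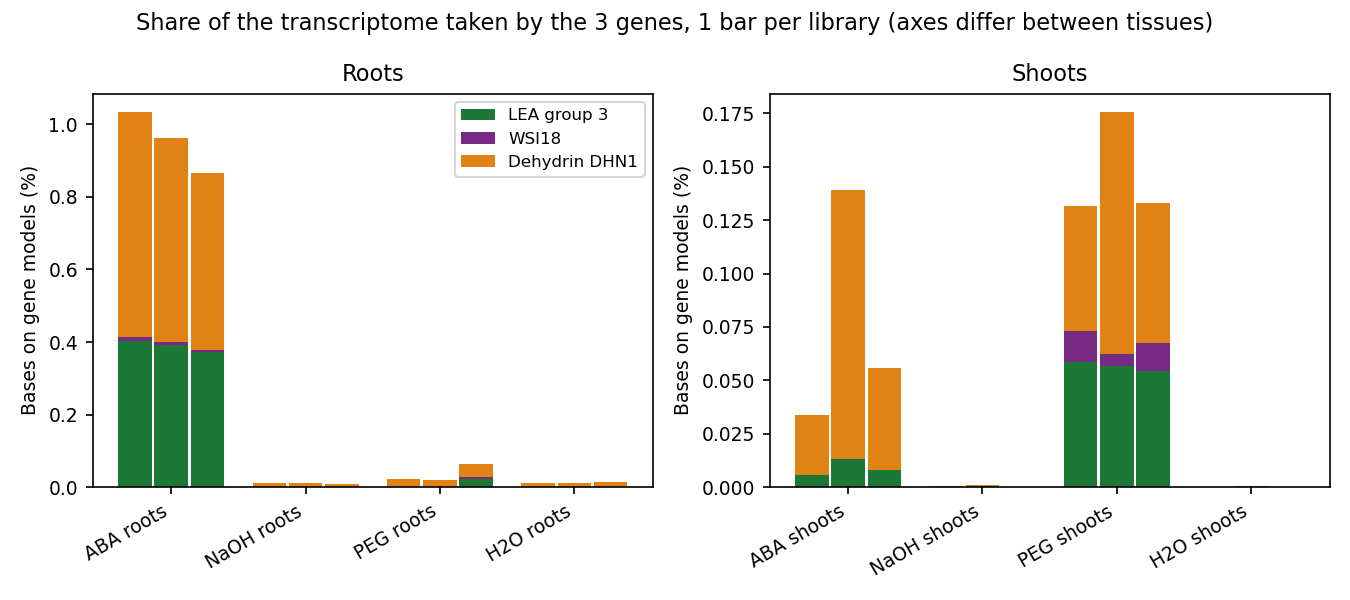
Share of bases on gene models (%) taken by the LEA group 3 gene, WSI18 and the dehydrin, stacked, 1 bar per library, with separate axes for roots and shoots. ABA roots reach 0.867% to 1.03% and PEG shoots 0.132% to 0.175%, while control bars are barely visible.

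Ranks by RPKM (reads scaled to exon length and library size, as deposited) place these shares among all 34145 gene models. In each ABA root library the dehydrin was in place 2, with 5893, 5367 and 4639 RPKM, and the LEA group 3 gene in place 4, with 3270, 3171 and 3008 RPKM. Place 1 went to Sb05g027670, a model with only 231 exonic bases, and by bases the dehydrin was first in all 3. In NaOH roots the dehydrin ranked 985, 985 and 1171 and the LEA group 3 gene 18479 to 19548. WSI18 ranked 1231 to 1699 in ABA roots, against 22422 to 24682 in NaOH roots.

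In PEG shoots the ranks by RPKM were 133, 128 and 143 for the LEA group 3 gene, 114, 54 and 103 for the dehydrin and 795, 2174 and 855 for WSI18. In H2O shoots the LEA group 3 gene ranked 16083 to 21486, the dehydrin 12905 to 17579 and WSI18 19584 to 23097. The dehydrin ranked 284, 54 and 142 in ABA shoots, while WSI18 stayed between 16840 and 22721 there.

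The spread of replicates differed widely between groups. The coefficient of variation (SD over mean of normalized reads, n = 3) of the LEA group 3 gene was 5.30% in ABA roots and 4.76% in PEG shoots, against 23.1% in NaOH roots and 140% in H2O shoots. In PEG roots it was 147%. The dehydrin varied by 13.0% in ABA roots, 6.61% in NaOH roots and 10.1% in H2O roots, and by 81.9% in ABA shoots, where replicate 2 was 4.88 times replicate 1. WSI18 varied by 15.8% in ABA roots and 44.6% in PEG shoots, and by 142% in PEG roots.

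The levels of the genes relative to each other were not the same in all groups. Per length (RPKM), the dehydrin was 1.80, 1.69 and 1.54 times the LEA group 3 gene in ABA roots, against 77.6, 108 and 95.8 times in NaOH roots. In PEG roots the ratio was 19.5, 17.3 and 1.80, against 83.5, 29.9 and 108 in H2O roots. PEG roots replicate 3 thus had the ratio of the ABA root libraries, not that of its 2 partners. For WSI18, by contrast, the LEA group 3 gene stood 36.1 to 44.2 times higher in ABA roots and 2.66 to 3.52 times higher in all 3 PEG root libraries.

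PEG roots replicate 3 was high across much of the wider group of genes too. Of 10 genes annotated as LEA, dehydrin or water-stress proteins (the 3 genes included), 6 were at least 4-fold above the mean of the other 2 PEG root libraries, with 1.16% of genes tested as background. This list was drawn from the study's genes changed in these same samples, so its counts in single libraries are not independent of that choice. The ratio was 18.1 for the LEA group 3 gene, 14.2 for WSI18 and 1.77 for the dehydrin, and it reached 149 for Sb02g010080. Chosen after its values were seen, the ABA synthesis gene Sb01g013520 was at 242 normalized reads in this library, against 29.5 and 23.9 in the other PEG root libraries. Of the other ABA genes described below, Sb07g022990 was 13.6 times and Sb04g030660 3.38 times the mean of these 2 libraries (1 read added). Sb04g030640, Sb02g026600, Sb01g028760 and Sb01g033570 were at 0.901 to 1.15 times this mean. Bases were called with RTA 1.6 in all libraries of replicate 3 and in NaOH shoots replicate 2, and with RTA 1.5 in the rest. What set this library apart was not tested.

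In H2O shoots replicate 2, 3 of the 10 genes were at least 4-fold above their partners, and the LEA group 3 gene was 11.2-fold and WSI18 9.51-fold above, with 3.20% of genes tested as background. NaOH shoots replicate 2 showed the LEA group 3 gene 6.09-fold above its partners (0.468% of genes tested). Without H2O shoots replicate 2, the count of genes called with PEG in shoots was 2017, against 1072 with it. The part of this library's state in the shoot results was not tested beyond leaving it out.

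**Figure D4:**
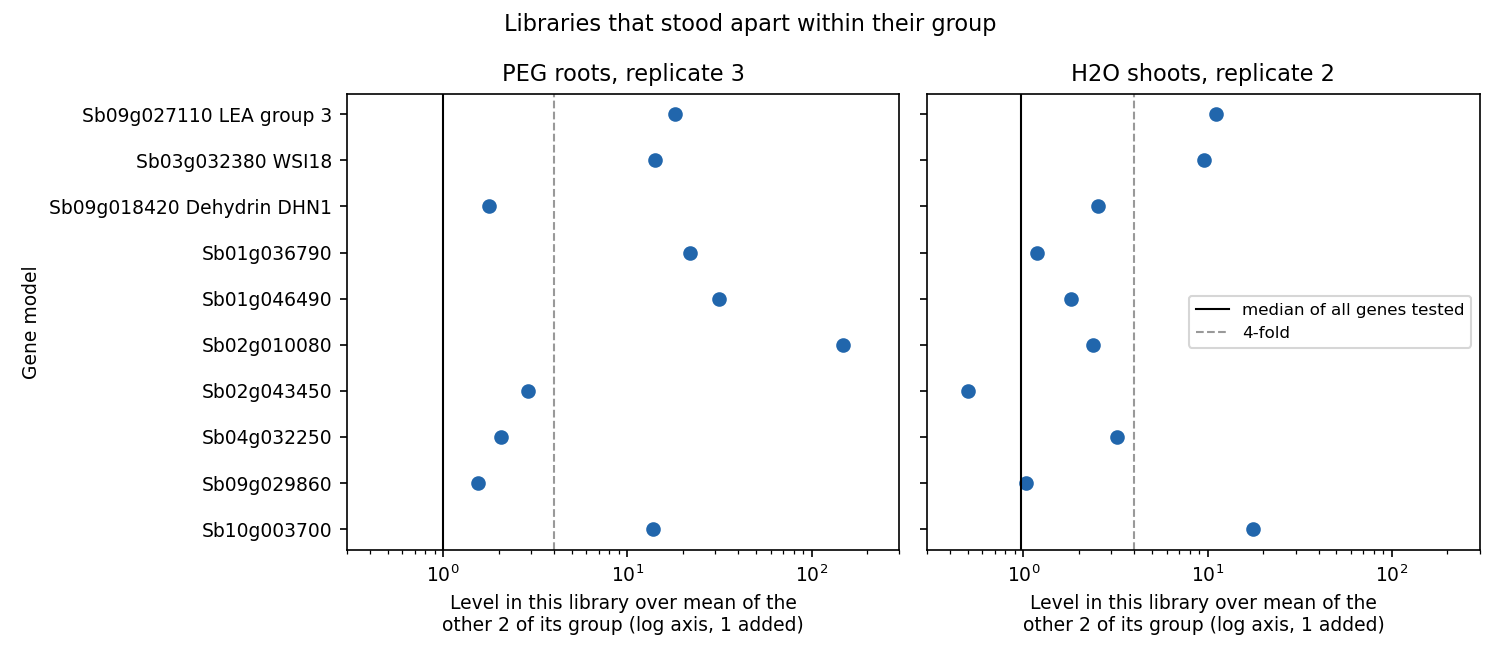
Level of each of 10 LEA, dehydrin and water-stress genes in PEG roots replicate 3 (left) and H2O shoots replicate 2 (right), divided by the mean of the other 2 libraries of the group (log axis, 1 normalized read added to both). The black line is the median of all genes tested (1.0 and 0.976) and the dashed line 4-fold, which 6 and 3 of the 10 genes pass. The 10 genes come from the study's lists of changed genes, so these counts are not independent of the samples.

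The 7 other genes of the list were taken from the study's lists of changed genes, which are held here only in part, so their counts are not independent of these samples. Over all 10 genes, 9 were called higher and 1 lower with ABA in roots (5.44% and 8.21% of genes tested). With PEG in shoots 10 were called higher (2.73%), with PEG in roots 3 were (2.03%), and with ABA in shoots 3 were called higher (3.16%) and 1 lower (4.01%). Without PEG roots replicate 3, 1 of the 10 was called with PEG in roots and the list's median there was 0.79. Without H2O shoots replicate 2, 8 were called with PEG in shoots (median 7.65), and without NaOH shoots replicate 2, 5 were called higher with ABA in shoots (median 3.55). With all libraries, the median log2 fold change of the list was 7.73 with ABA in roots (6.47 with the 2 genes that lack any control read at their lower bound), against −0.02 for all genes tested. It was 4.52 with PEG in roots and 6.83 with PEG in shoots (both 0.00 for all genes), and 2.44 with ABA in shoots (1.18 with 1 gene at its bound), against −0.03.

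Sb02g010080, similar to a hydrophobic LEA protein, was without a read in the NaOH libraries of either tissue. It had 1359, 1339 and 777 normalized reads in ABA roots, against 0 in all NaOH root libraries, and was at least 1301-fold higher over a floor of 3 reads for the control group. With PEG the root values were 1.02, 0.918 and 292 normalized reads, while H2O roots gave 0, 1.88 and 0. Its depth there was too low for a call, and 2 of its 3 PEG libraries were at the control level. In PEG shoots it had 30.9 to 129 normalized reads, against 0 to 1.39 in H2O shoots, where 1 read was counted in all. The log2 fold change of 6.97 was called (edgeR adjusted p = 0.0473), but not firmly. It was lost at a depth cutoff of 5X, without the low-count filter (edgeR adjusted p = 0.0760) and without any 1 PEG or H2O shoot library.

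Sb10g003700, similar to a dehydrin, was called in 3 of the 4 comparisons. It had 2814, 2668 and 1367 normalized reads in ABA roots, against 31.1, 20.5 and 17.8 in NaOH roots (log2 fold change 6.64). It had 2905, 1213 and 2407 in PEG shoots, against 0, 16.6 and 0 in H2O shoots (8.60, which depends on the 1 control library with reads), and with PEG in roots its log2 fold change was 4.10. All 3 passed the test with all libraries. With PEG in roots the call rested on PEG roots replicate 3, and without it the change was 1.67 (edgeR adjusted p = 0.0571). Without replicate 1 it was also lost (edgeR adjusted p = 0.0511), while with ABA in shoots (4.71) its depth was too low for a call. Sb01g036790, similar to LEA protein 1, was called with ABA in roots (8.81), PEG in shoots (6.68) and ABA in shoots (3.71). Its NaOH roots had 2 reads in all, so the value in roots depends on the prior count. The call with ABA in shoots was lost without replicate 1 (edgeR adjusted p = 0.149), without NaOH shoots replicate 3 (0.05002) and at a depth cutoff of 5X.

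One gene of the list went the other way. Sb02g043450, similar to the rice water-stress protein WSI76, had 22.0, 13.3 and 16.3 normalized reads in ABA roots, against 97.4, 81.1 and 139 in NaOH roots, and fell by 2.63 on the log2 scale. It fell by 3.38 with ABA in shoots and rose by 1.69 with PEG in shoots (edgeR adjusted p = 0.0232). The call of this rise was not firm. It was lost without replicate 1 (edgeR adjusted p = 0.276) or 3 (0.0649), and without PEG shoots replicate 1 or 3 or H2O shoots replicate 1 or 2. In rice WSI76 is a galactinol synthase, an enzyme of raffinose sugar synthesis and not a LEA protein.

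**Figure D5:**
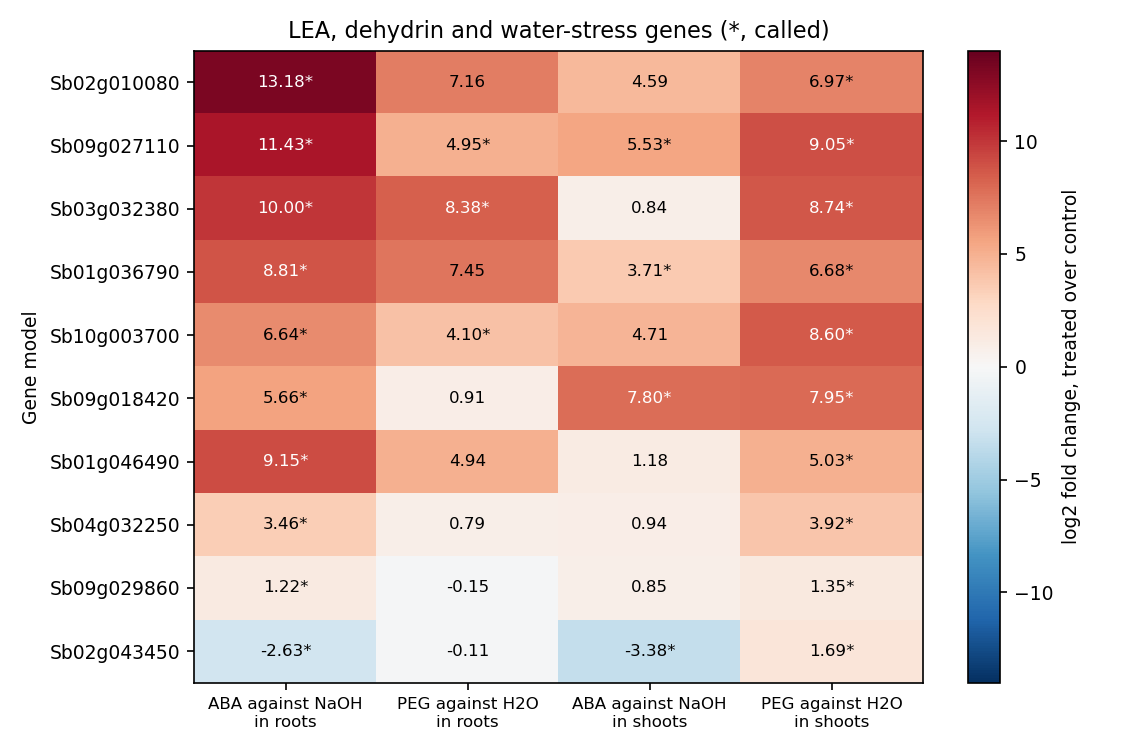
Log2 fold change (treated over control) of 10 LEA, dehydrin and water-stress genes in the 4 treated against control comparisons, with called values marked by an asterisk. Sb02g010080 has the highest value (13.18, with no read in its NaOH root libraries, so it depends on the prior count), and Sb02g043450 holds the lowest (−3.38).

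Genes of ABA metabolism and signalling were again taken from the study's lists of changed genes. Their counts and medians are thus not independent of these samples, and no hormone level was measured. Of 7 such genes 5 were called higher with ABA in roots (5.44% of genes tested), 3 higher and 1 lower with ABA in shoots (3.16% and 4.01%), 1 higher with PEG in roots (2.03%) and 2 higher with PEG in shoots (2.73%). The ABA 8'-hydroxylases break ABA down, and Sb02g026600, one of them, had 575, 465 and 578 normalized reads in ABA roots, against 1.0, 1.95 and 1.98 in NaOH roots. This was a rise of 8.21 on the log2 scale, and in ABA shoots it was 2.96. Sb07g022990 rose by 7.43 with ABA in roots, and Sb04g030660 by 3.07 with ABA in roots, 1.24 with ABA in shoots and 2.10 with PEG in roots.

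The 9-cis-epoxycarotenoid dioxygenase gene Sb01g013520, of the committed step of ABA synthesis, had 1106, 216 and 1075 normalized reads in PEG shoots, against 40.4, 11.1 and 47.3 in H2O shoots (log2 fold change 4.59). Its relative Sb04g030640 was the gene called lower with ABA in shoots, with 6762, 4191 and 5796 normalized reads in ABA shoots, against 15680, 10754 and 14774 in NaOH shoots (log2 fold change −1.30). The kinase gene Sb01g028760, similar to rice SAPK3, rose by 2.01 with PEG in shoots, and Sb01g033570, similar to SAPK1, by 1.84 with ABA in roots and 1.22 with ABA in shoots. As medians, the log2 fold change of the 7 genes was 2.37 with ABA in roots, 0.47 with PEG in roots, 1.04 with ABA in shoots and 1.03 with PEG in shoots.

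The genes whose levels ran most like each of the 3 were found by Pearson's r of log2 library-scaled reads over the 24 libraries, as a description of likeness among 22667 genes. The libraries share tissues, treatments and experiments, and r is not a test. Closest to the LEA group 3 gene were Sb01g038670 (r = 0.985), Sb01g017695 (0.985), Sb01g046000 (0.970) and Sb04g004100 (0.967), none with an informative description, and Sb03g034280 (0.964), similar to an oxidoreductase precursor. WSI18 was 106th in that order (0.883) and the dehydrin 123rd (0.873).

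Closest to WSI18 were Sb06g026900 (r = 0.968), Sb01g048120 (0.961), Sb06g028110 (0.958), Sb10g000930 (0.949) and Sb04g017790 (0.940), none of them described by function. Closest to the dehydrin were Sb03g039360 (0.977), similar to a 70 kDa heat shock protein, Sb01g019970 (0.960), Sb03g025280 (0.957), Sb03g035570 (0.954), similar to a serpin, and Sb04g008300 (0.945), listed with the HSF family of heat stress transcription factors. WSI18 and the dehydrin were less alike (r = 0.658), with WSI18 in place 1217 among the genes most like the dehydrin.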

How the data were processed

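The authors sequenced 24 libraries, trimmed reads to 50 bases, aligned them to the genome sbi1 with up to 2 errors, kept unique matches and counted them without strand on gene models (CASAVA 1.6, per the labels). The deposited raw counts are aligned bases on exons, not reads, so they were divided by 50 and rounded. The deposited RPKM, computed by the authors from the same bases, was used for levels per length and ranks only, and the deposited depth, a coverage signal in bases per exon base, only for the cutoff of 2X. Exon length was the fourth deposited value.

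The test was that of edgeR 4.0.16 in R 4.3.3 (robust quasi-likelihood fit of all 24 libraries, a mean per group, TMM scaling, low-count filter leaving 22667 genes, two-sided, Benjamini-Hochberg adjustment within each comparison). Interactions had no depth cutoff. The SE was taken as the size of the log2 fold change over the root of its F value, and is not given for WSI18 where F was close to 0, since it is unstable there. Alternatives included DESeq2 1.42.0, replicate blocks and every library left out in turn. The fit was tested on simulated data with known changes in ABA roots alone, in genes above a minimum level in NaOH roots. Changes from controls near 0 reads, interactions and tissue differences were not covered. Replicate numbers pair the samples, since each is 1 hydroponic experiment by the study's methods, with roots and shoots from the same plants. The main fit did not use this pairing, while the replicate block across both tissues did. Deviations from group means correlated at 0.24 on average between libraries of 1 number and tissue. The mean between numbers, −0.117, largely follows from this value, since the deviations of the 3 libraries of a group sum to 0. It is therefore no second observation. P-values of the main fit rest on the spread of libraries within groups, with all 24 libraries taken as independent. They do not measure the spread of an effect between the 3 experiments.

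The 3 genes and the lists were chosen with earlier results of these data known. Of the lists, genes called in at least 3 of 4 treated against control comparisons were named, and the 3 largest per comparison, with the 5 genes most like each of the 3. Promoter and protein sequences were not analysed here.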

Additional observations from a re-analysis of the deposited data

Results flagged for a closer look

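Effects of 1 treatment that differed between roots and shoots by the interaction test were taken out for a closer look. With ABA, the effect in roots minus that in shoots was 5.90 for the LEA group 3 gene, 9.15 for WSI18 and −2.13 for the dehydrin Sb09g018420 on the log2 scale. It was also 2.52 for Sb04g032250, a second dehydrin, which had 18578, 18500 and 18314 normalized reads in ABA roots, against 1815, 1655 and 1568 in NaOH roots. This gene had 1351, 1531 and 1297 normalized reads in ABA shoots, against 431, 1167 and 572 in NaOH shoots.

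With PEG, the effect in roots minus that in shoots was −7.04 for the dehydrin Sb09g018420, −3.13 for Sb04g032250 and −1.49 for Sb09g029860, similar to a putative LEA protein. Sb04g032250 had 9753, 5899 and 9995 normalized reads in PEG shoots, against 268, 1051 and 379 in H2O shoots. In PEG roots it had 2519, 2141 and 4791, against 1640, 1838 and 1998 in H2O roots. With all libraries, Sb04g032250 and Sb09g018420 thus were the list's 2 genes with a called tissue difference for both treatments. For Sb04g032250 the ABA call was lost without replicate 3 (edgeR adjusted p = 0.0716). Its PEG call was lost without replicate 1 (0.143) or 3 (0.0705), and that of Sb09g029860 likewise (0.241 and 0.0901). Sb09g018420 lost its ABA call in 11 of the 27 fits that left out 1 library or replicate number. Groups of 3 libraries are too small for a test of outlying samples.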

How the results depend on the processing

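Of 39 results on the 3 genes, 21 kept their direction and their side of the threshold in every alternative tried, 10 crossed the threshold in at least 1, and 8 that were not called changed sign in at least 1. No called value of the 3 genes changed sign. Without a fold change cutoff the genes called were 6204 (ABA, roots), 1459 (PEG, roots), 4127 (ABA, shoots), 3175 (PEG, shoots), 5544 and 2133 (ABA against PEG in roots and in shoots), 1402 (PEG effect in roots minus shoots) and 14629 (basal), against 3094, 790, 1625, 1072, 2750, 870, 924 and 8307. At a depth cutoff of 5X, WSI18 with PEG in roots (8.38) was no longer called, the list had 1 gene higher with PEG in roots and 0 lower with ABA in either tissue, and with no depth cutoff 6 were higher with PEG in roots. The ABA minus PEG difference of WSI18 in shoots was −7.89 with no low-count filter and −7.92 in the 12-library fit, neither called. That comparison had 405 genes called, 650 with the replicate block, 1125 with the block within each tissue, 158 in the 12-library fit and 718 with DESeq2. Between the controls DESeq2 called 1 gene in roots, and a common-dispersion exact test on quantile-normalized counts 91 in roots and 12 in shoots, against 0. ABA against PEG was called for WSI18 in roots with the replicate block (2.55), the block within each tissue (2.92), RTA version as a term (2.56) and the exact test (2.03), and for the LEA group 3 gene in shoots with those blocks (−2.64 and −2.71) and the exact test (−2.52). The PEG effect in roots minus shoots of the LEA group 3 gene was called with the block within each tissue (−5.07), where 1629 genes were. The replicate block changed no other call of the 3 genes. Leaving out the 100 gene models with most bases gave the LEA group 3 gene 0.426% of bases in ABA roots, and ranking by bases gave median ranks there of 2592 for WSI18 (1483 by RPKM) and 1 for the dehydrin. The basal difference of the LEA group 3 gene, −0.09, was 0.0028 with RTA version as a term and 0.55 with library sizes alone. The PEG effect in roots minus shoots of Sb02g010080 was −0.31 with the replicate block, −0.26 with the block within each tissue and −0.50 with RTA version as a term, against 0.19. The cause was not tested for these changes.

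Leaving out 1 library or replicate number, the LEA group 3 gene ranged from 1.89 to 6.17 with PEG in roots, from 5.18 to 9.49 for ABA minus PEG in roots, from −2.98 to −2.21 for ABA against PEG in shoots, from 4.21 to 6.45 for the ABA effect and from −6.86 to −3.34 for the PEG effect in roots minus shoots. WSI18 ranged from −10.57 to −6.50 for ABA minus PEG in shoots, from 1.34 to 4.51 for ABA against PEG in roots and from 8.28 to 10.43 for the ABA effect in roots minus shoots, and the dehydrin from −2.67 to −1.23 for the last. Values that were not called and changed sign ranged, for WSI18, from −1.06 to 1.69 with ABA in shoots, −0.95 to 1.27 between controls in roots and −3.04 to 0.96 for the PEG effect in roots minus shoots. For the dehydrin they ranged from −1.05 to 0.38 for ABA minus PEG in shoots, −0.43 to 0.67 between controls in shoots and −0.95 to 0.33 for ABA against PEG in shoots, and for the LEA group 3 gene from −0.67 to 3.34 between controls in shoots and −0.44 to 1.6 for the basal difference. With PEG in roots Sb02g010080 ranged from −0.064 to 10.28, Sb02g043450 from −0.85 to 0.43 and Sb09g029860 from −0.39 to 0.042, and for the PEG effect in roots minus shoots Sb01g036790 ranged from −2.36 to 1.30, Sb01g046490 from −4.53 to 1.12 and Sb02g010080 from −6.54 to 2.69. Genes called ranged from 295 to 892 (PEG, roots), 603 to 2017 (PEG, shoots), 1367 to 2957 and 8 to 1918 (ABA minus PEG in roots and in shoots), 297 to 1107 (ABA against PEG in shoots), 1030 to 2377 and 66 to 2324 (ABA and PEG effects in roots minus shoots) and 0 to 4 (controls, either tissue). List genes called higher ranged from 1 to 4 (PEG, roots), 2 to 5 (ABA, shoots) and 6 to 10 (PEG, shoots). Fits without a number leave 2 libraries a group. WSI18 in controls, at 0 to 13 reads a library, is limited by depth.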
